A study of Mus musculus with 14 samples.

Results

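The 39 genes described here encode the glucose transporters, the enzymes of glycolysis, the pyruvate dehydrogenase subunits and their kinases, and the enzymes of the citric acid cycle. They were taken by name from the 2 pathways, at a time when earlier results of these data were already known. The choice was therefore not blind to the data. For Hk1, which had 2 probe sets, the measured values also decided which of them was used. A probe set annotated to a single gene symbol was found for 36 of the 39, out of 19155 genes measured in all. Gpi1, Eno1 and G6pdx had none and enter only the promoter counts below. The measured genes were read as 16 members of the glycolytic arm (transporters, hexokinases to enolase, lactate dehydrogenases), 14 members of the mitochondrial arm (pyruvate dehydrogenase subunits and the cycle enzymes of the mitochondrion), 3 pyruvate dehydrogenase kinases and 3 cytosolic enzymes (Aco1, Idh1 and Mdh1).

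Glycolysis splits glucose into pyruvate in the cytosol, and lactate dehydrogenase turns pyruvate into lactate and regenerates the NAD+ that glycolysis consumes. Pyruvate dehydrogenase instead commits pyruvate to the mitochondrion as acetyl-CoA, which the citric acid cycle oxidises, and the pyruvate dehydrogenase kinases switch that step off. In bone marrow, quiescent stem cells are known for a largely glycolytic metabolism, and the progenitors that leave this state rely more on mitochondrial respiration.

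Expression was profiled on 14 Affymetrix Mouse Gene ST arrays, each with amplified RNA from 20000 bone marrow cells of wild-type C57BL/6 mice, in 4 groups. Old mice, aged 24 months, gave 3 arrays of MPP4 and 3 of MPP3, and young mice, aged 8 to 10 weeks, gave 5 arrays of MPP4 and 3 of MPP3. Both are multipotent progenitors, negative for lineage markers and positive for Sca-1 and cKit. MPP4 are lymphoid-biased and were sorted as positive for Flk2, whereas MPP3 are myeloid-biased and were sorted as negative for Flk2 and CD150 and positive for CD48. How many mice gave the cells of 1 array, and of which sex, was not given array by array in the sources used here. The study's methods state that animals of both sexes were used without distinction. In such bulk samples, fewer cells of a type and less RNA per cell cannot be told apart.

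Every value below is the deposited normalized value, a score of a gene's rank on its array (the negative natural log of the fraction of probe sets that reach it). For example, the mean of 3.33 for Pgk1 over all arrays meant that 3.58% of probe sets ranked at or above it. Differences are given as differences in this value, never as folds. The probe set itself also sets the value, so the ranks of different genes do not order their abundance.

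The sort was visible in Flt3, which encodes Flk2. Flt3 lay between 3.29 and 3.53 on old MPP4 arrays and between 2.77 and 3.53 on young MPP4 arrays. On MPP3 arrays it lay between 1.42 and 2.10 in old mice and between 2.02 and 2.20 in young mice. Cd48 had a lower mean in MPP4 than in MPP3 in young mice (-0.319) and a higher one in old mice (0.200). Slamf1, which encodes CD150, averaged between 0.115 and 0.190 in the 4 groups. The 14 arrays also fell into 2 sets by the 33.3% of probe sets with the lowest means, 9 arrays in set 1 and 5 in set 2. Young MPP4 replicates 3, 4 and 5 were in set 2 with young MPP3 replicates 2 and 3. Every old array and the other young arrays were in set 1. The labels name no batch, the young arrays were also part of an earlier deposit, and no old array lay in set 2, so that a difference between deposits and a difference of age cannot be told apart. Xist, the RNA of the inactive X chromosome, exceeded 1 on 4 young arrays (MPP3 replicate 1, MPP4 replicates 1, 4 and 5), and Pgk1, Pdha1, Idh3g and Pdk3 are X-linked members. Eif2s3y, a gene of the Y chromosome, lay between 1.69 and 2.06 on the old arrays. It was 0.0221 on young MPP3 replicate 1 and 0.0261 on young MPP4 replicate 1. On young MPP4 replicates 4 and 5 it was 0.855 and 1.89. By these genes, sex was not matched between the ages.

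The members lay mostly in the upper part of each array's ranking. The median of the members' means was 1.30 in the glycolytic arm (range 0.224 to 4.28) and 2.02 in the mitochondrial arm (range 1.31 to 3.40), with 0.695 over all genes measured. At the upper end, Idh3g, a regulatory subunit of NAD-dependent isocitrate dehydrogenase, averaged 3.40, and Pgk1, the phosphoglycerate kinase that makes the first ATP of glycolysis, averaged 3.33. Hk1, the widely expressed hexokinase, had the highest value at 4.28, but its probe set is listed with 1 transcript accession and 0 RefSeq accessions. The second Hk1 probe set, listed with 8 accessions of which 4 are RefSeq, averaged 1.71. Eno2, the neuronal enolase, averaged 0.224, a value that 80.0% of probe sets reached, and Pdk2 and Aldoc, the brain aldolase, averaged 0.503 and 0.889.

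**Figure D1:**
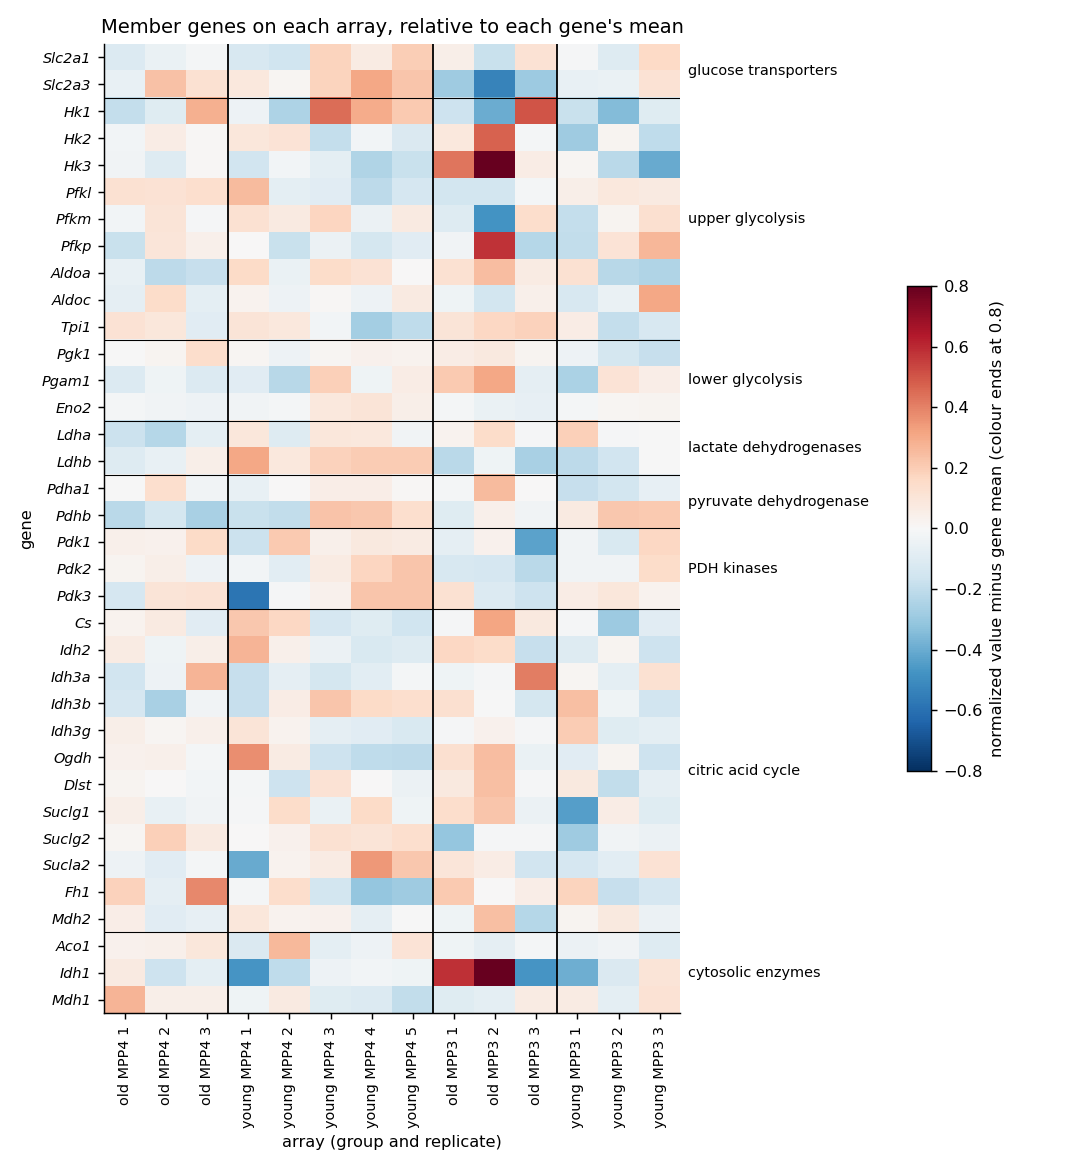
The 36 measured members (rows, by role) on the 14 arrays (columns, by group and replicate). Colour gives the normalized value minus the gene's mean over all arrays and saturates at 0.8. The darkest cells lie on old MPP3 replicate 2 in Hk3 and Idh1, at 2.35 and 2.74.

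No member passed the test in any comparison. The count was 0 of 36 at an adjusted p under 0.05 for old against young MPP4, old against young MPP3, MPP4 against MPP3 in old mice, MPP4 against MPP3 in young mice, and the difference between the age differences. Over all genes, 0% passed in each of these comparisons except MPP4 against MPP3 in young mice, where 0.131% (25 genes) passed. At an unadjusted p under 0.05, 14 of the 36 members appeared in at least 1 comparison and 22 in none. The same count over all genes was not made, so the 14 have no background to be read against. In single comparisons, 6.26% to 11% of all genes had such a p. The 4 comparisons of groups share arrays in pairs, so their values are given side by side and are not independent of each other.

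Old MPP4 had lower mean values than young MPP4 in both lactate dehydrogenases and in aldolase A, and a higher mean in the cytosolic malate dehydrogenase. These were the 4 members with an unadjusted p under 0.05, 4 of 36 against 9.77% of all genes. Ldhb, whose product favours the conversion of lactate to pyruvate, had 0.843, 0.885 and 0.994 on old MPP4 arrays, against 1.25, 1.03, 1.13, 1.15 and 1.15 on young MPP4 arrays. All 3 old arrays lay below all 5 young ones. The difference was -0.237 ± 0.0538 (SE; adjusted p = 0.323). Aldoa, which cleaves fructose 1,6-bisphosphate, had 2.52, 2.38 and 2.40 on old MPP4 arrays, against 2.74, 2.53, 2.73, 2.70 and 2.59 on young ones. These groups did not overlap either, although the highest old array came close to the lowest young one, and the difference was -0.223 ± 0.0606 (adjusted p = 0.374).

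Ldha, whose product favours the making of lactate, had 2.04, 1.98 and 2.13 on old MPP4 arrays, against 2.30, 2.10, 2.30, 2.29 and 2.18 on young MPP4 arrays. Old replicate 3 overlapped with young replicate 2. The difference was -0.184 ± 0.0579 (adjusted p = 0.427). Mdh1, the cytosolic arm of the malate-aspartate shuttle that carries reducing equivalents into the mitochondrion, had 2.75, 2.52 and 2.52 on old MPP4 arrays, against 2.45, 2.55, 2.38, 2.37 and 2.28 on young ones. Old replicate 1 stood above the rest, the groups overlapped, and the difference was 0.194 ± 0.0744 (adjusted p = 0.482).

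Ldhb and Aldoa were the 2 members of 36 whose groups did not overlap, against 7.29% of all genes. Across the 36, 20 had the higher mean in old MPP4 and 16 the lower, with a median difference of 0.0164, beside -0.000171 over all genes. By arm, 6 of 16 glycolytic and 9 of 14 mitochondrial members had the higher mean in old MPP4. Within array set 1 (3 old against 2 young MPP4 arrays), Ldhb, Aldoa, Ldha and Mdh1 differed by -0.236, -0.201, -0.151 and 0.101. With array weights Ldhb alone of the members passed (adjusted p = 0.0449), beside 1.59% of all genes.

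The promoters of the 3 glycolytic genes with an unadjusted p under 0.05 in old MPP4, Ldhb, Aldoa and Ldha, are shown because hypoxia-inducible factor (HIF), a known activator of glycolytic genes, binds a site with the core ACGTG. The windows run from 250 bases before to 50 after a transcription start in RefSeq (GRCm38.p6), and 37 of the 39 genes had at least 1. Capitals mark ACGTG on either strand, which also lies within the E-box CACGTG that MYC and other factors bind.
Ldhb (chr6:142507908-142508207, minus strand): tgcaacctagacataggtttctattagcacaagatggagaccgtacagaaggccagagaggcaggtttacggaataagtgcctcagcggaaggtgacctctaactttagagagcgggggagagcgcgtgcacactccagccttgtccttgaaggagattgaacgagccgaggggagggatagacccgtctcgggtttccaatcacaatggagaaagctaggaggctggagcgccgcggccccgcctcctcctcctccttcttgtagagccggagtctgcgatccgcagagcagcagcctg
Aldoa (chr7:126799129-126799428, minus strand, 1 of 3 windows): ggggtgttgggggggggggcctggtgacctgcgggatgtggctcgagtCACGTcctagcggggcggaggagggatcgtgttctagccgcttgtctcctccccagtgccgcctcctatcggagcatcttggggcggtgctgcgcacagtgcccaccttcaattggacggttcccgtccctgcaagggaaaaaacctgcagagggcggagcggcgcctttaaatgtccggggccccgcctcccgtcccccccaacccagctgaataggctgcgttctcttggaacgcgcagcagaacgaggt
Ldha (chr7:46845554-46845853, plus strand, 1 of 2 windows): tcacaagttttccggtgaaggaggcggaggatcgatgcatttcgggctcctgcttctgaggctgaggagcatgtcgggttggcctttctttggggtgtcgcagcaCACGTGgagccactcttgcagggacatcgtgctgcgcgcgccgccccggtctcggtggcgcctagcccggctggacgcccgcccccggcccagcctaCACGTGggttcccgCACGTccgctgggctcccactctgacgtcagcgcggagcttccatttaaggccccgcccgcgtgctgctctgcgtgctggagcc
The Ldhb window held 0 such stretches, the Aldoa window 1 and the Ldha window 3, of which 2 were a whole CACGTG. For Aldoa and Ldha the window with the most ACGTG matches was chosen, and each also had a window without ACGTG. Ldhb had a single window, so these counts are not alike. The other form of the core, GCGTG, is not capitalised. It lay in the Ldhb and Ldha windows shown and not in the Aldoa window shown. Among all members with a window, measured or not, ACGTG lay in at least 1 window of 10 of 17 glycolytic genes (58.8%). In the mitochondrial arm it did so for 3 of 13 genes (23.1%). The share was 21.8% over all genes. Counted by window, the shares were 44.4% in both arms, since Ogdh alone brought 6 windows with the letters, against 19.6% of all 32851 windows. The letters GCGTG were in windows of 58.8% of glycolytic and 61.5% of mitochondrial genes, against 35.2% of all genes. CACGTG was in windows of 11.8% and 7.69%, against 8.09% of all genes, and GGGCGG, the box bound by SP1, in 70.6% and 69.2%, against 38.2%. Member windows also held more CpG, with a median of 17 in the glycolytic and 22.5 in the mitochondrial arm, against 7 over all windows. Such matches describe the sequence only.

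**Figure D2:**
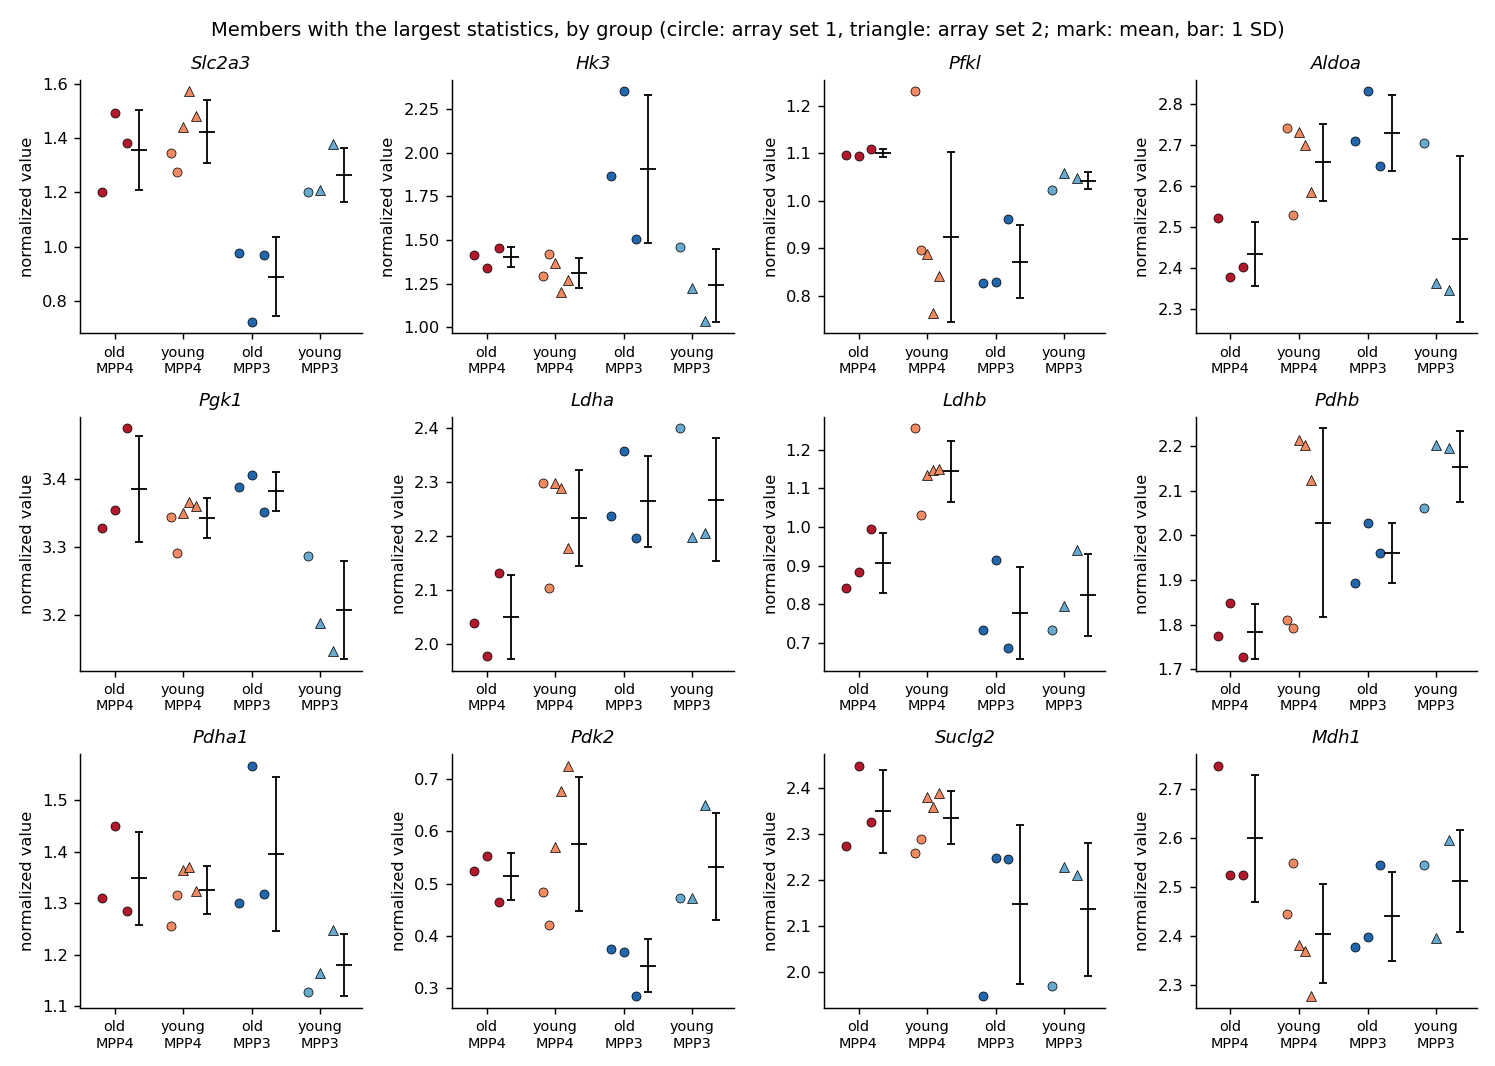
Normalized value of 12 members on each array, by group, with array set 1 as circles and set 2 as triangles. Horizontal marks are group means and bars 1 SD. Ldhb is lower in all old MPP4 than in all young MPP4 arrays, Slc2a3 is lower in old MPP3 than in every other group, and the young MPP4 points of Pdhb divide by array set.

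Old MPP3 had a lower mean than young MPP3 in the glucose transporter Slc2a3, in Pfkl and in Pdhb, and higher means in Pgk1, Tpi1 and Hk3. At an unadjusted p under 0.05, 8 of 36 members were counted, 4 higher and 4 lower, against 8.19% of all genes. With array set as a term, this count was 2 of 36, against 9.57% of all genes. The groups did not overlap for 9 of the 36, 4 higher and 5 lower, against 14.2% of all genes. Slc2a3, the high-affinity transporter GLUT3, had 0.979, 0.724 and 0.968 on old MPP3 arrays, against 1.20, 1.21 and 1.38 on young MPP3 arrays. Replicate 2 was the lowest of the old arrays, all of which lay below the young ones. The difference was -0.373 ± 0.0907 (SE; adjusted p = 0.501). The other measured transporter, Slc2a1 (GLUT1), averaged between 1.28 and 1.37 in the 4 groups.

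Pgk1 had 3.39, 3.41 and 3.35 on old MPP3 arrays, against 3.29, 3.19 and 3.15 on young MPP3 arrays, and the difference was 0.174 ± 0.0445 (adjusted p = 0.507). Pfkl, the liver-type subunit of phosphofructokinase at the committed step of glycolysis, had 0.827, 0.828 and 0.961 on old arrays, against 1.02, 1.06 and 1.05 on young ones, a difference of -0.171 ± 0.0454 (adjusted p = 0.511). In both genes the groups were apart, Pgk1 with the old arrays above and Pfkl with the old arrays below. Pdhb, the beta subunit of the E1 component of pyruvate dehydrogenase, had 1.89, 2.03 and 1.96 on old MPP3 arrays, against 2.06, 2.20 and 2.20 on young MPP3 arrays, a difference of -0.194 ± 0.0566 (adjusted p = 0.528). Young replicate 1, the one young MPP3 array of set 1, lay nearest to the old arrays in Pgk1, Pfkl and Pdhb.

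The alpha subunit of the same enzyme, Pdha1, ran the other way, with 1.30, 1.57 and 1.32 on old MPP3 arrays, against 1.13, 1.17 and 1.25 on young MPP3 arrays (difference 0.215 ± 0.0835, adjusted p = 0.606). The 3 kinases that inactivate pyruvate dehydrogenase had lower means in old MPP3, by -0.189 in Pdk2, -0.160 in Pdk1 and -0.109 in Pdk3, and Pdk2 alone of the 3 had an unadjusted p under 0.05. Pdk2 had 0.376, 0.369 and 0.285 on old MPP3 arrays, against 0.473, 0.473 and 0.651 on young ones, without overlap. Over all 36 members the median difference was 0.0252, with 20 higher and 16 lower means, beside 0.000183 over all genes. It was 0.0215 in the glycolytic arm (8 of 16 higher) and 0.114 in the mitochondrial arm (10 of 14 higher). Tpi1, the triose phosphate isomerase, averaged 2.95 ± 0.0437 in old MPP3 and 2.72 ± 0.131 in young MPP3 (SD; difference 0.236 ± 0.0724, adjusted p = 0.549). Within array set 1, where the young side is a single array whose spread is assumed to equal that of the others, Slc2a3, Pgk1, Pfkl and Pdhb differed by -0.310, 0.0945, -0.150 and -0.102.

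In old mice, Pfkl, Pdk2 and Slc2a3 had higher means in MPP4 than in MPP3 and Aldoa a lower one, the 4 members with the largest differences relative to their error. Hk3 and Idh1 differed by more, -0.505 in both, with a wider spread. An unadjusted p under 0.05 was found for 7 of 36 members, 4 higher and 3 lower in MPP4, against 9.83% of all genes. Non-overlap was found for 9 of 36, against 16.6% of all genes. Pfkl had 1.10, 1.09 and 1.11 on old MPP4 arrays, against 0.827, 0.828 and 0.961 on old MPP3 arrays, a difference of 0.228 ± 0.0428 (SE; adjusted p = 0.270). The MPP4 arrays were nearly identical and all above the MPP3 arrays. Aldoa had 2.52, 2.38 and 2.40 on old MPP4 arrays, against 2.71, 2.83 and 2.65 on old MPP3 arrays, all of them higher (difference -0.296 ± 0.0633, adjusted p = 0.322).

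Pdk2 had 0.524, 0.553 and 0.465 on old MPP4 arrays, against 0.376, 0.369 and 0.285 on old MPP3 arrays (difference 0.171 ± 0.038, adjusted p = 0.335). Slc2a3 had 1.20, 1.49 and 1.38 on old MPP4 arrays, against 0.979, 0.724 and 0.968 on old MPP3 arrays (difference 0.467 ± 0.105, adjusted p = 0.335). Both genes were higher on every MPP4 array. Aco1, Pdhb and Ldha completed the 7, with differences of 0.0968, -0.177 and -0.214. The median over the 36 members was -0.0371, beside -0.00149 over all genes, and 11 of 14 mitochondrial members had the lower mean in old MPP4.

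In young mice, MPP4 had higher mean values than MPP3 in Ldhb, Pdha1, Pgk1 and Suclg2, 4 of 36 members with an unadjusted p under 0.05 against 11% of all genes. The same 4 were those without overlap, against 7.47% of all genes. Ldhb had 1.25, 1.03, 1.13, 1.15 and 1.15 on young MPP4 arrays, against 0.735, 0.795 and 0.941 on young MPP3 arrays, a difference of 0.320 ± 0.0608 (SE; adjusted p = 0.131). It gave the smallest adjusted p of any member in any comparison. Pdha1 had 1.26, 1.32, 1.36, 1.37 and 1.32 on young MPP4 arrays, against 1.13, 1.17 and 1.25 on young MPP3 arrays (difference 0.146 ± 0.0375, adjusted p = 0.237). The lowest MPP4 array exceeded the highest MPP3 array only narrowly.

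Pgk1 had 3.34, 3.29, 3.35, 3.37 and 3.36 on young MPP4 arrays, against 3.29, 3.19 and 3.15 on young MPP3 arrays (difference 0.135 ± 0.0355, adjusted p = 0.238). Suclg2, the GDP-forming subunit of succinyl-CoA ligase, had 2.26, 2.29, 2.38, 2.36 and 2.39 on young MPP4 arrays, against 1.97, 2.23 and 2.21 on young MPP3 arrays (difference 0.199 ± 0.0652, adjusted p = 0.330). In both genes an MPP4 array and an MPP3 array lay close together. Of the 36 members, 24 had the higher mean in young MPP4, and the median difference was 0.0424, beside -0.000129 over all genes.

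The calls of this comparison moved with array set. Within set 2 (3 MPP4 against 2 MPP3 arrays), Aldoa, Ldhb, Pgk1 and Suclg2 passed, 4 of 36 members against 7.79% of all genes, with differences of 0.319, 0.276, 0.191 and 0.156 (adjusted p = 0.0392, 0.0457, 0.0246 and 0.0289). These arrays were grouped by their likeness in the dimmest probe sets and not by any label. Within set 1 (2 MPP4 arrays against 1 MPP3 array), Ldhb, Pgk1 and Suclg2 differed by 0.409, 0.0304 and 0.304, whereas Aldoa turned sign, at -0.0690, beside 0.187 over all 8 arrays. With array set as a term, Suclg2 alone of the members passed (0.209 ± 0.0327, adjusted p = 0.0456), beside 1.41% of all genes, and Ldhb missed at an adjusted p of 0.0674. With array weights, 6 of 36 members passed (Pgk1, Ldhb, Aldoa, Pdha1, Pfkp and Suclg2), against 9.44% of all genes. Of these, Pfkp had the lower mean in young MPP4 with array weights (-0.286) and the higher one within set 1 (0.109). Without the arrays with Xist, Pgk1 and Pdha1, both X-linked, differed by 0.153 and 0.134.

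**Figure D3:**
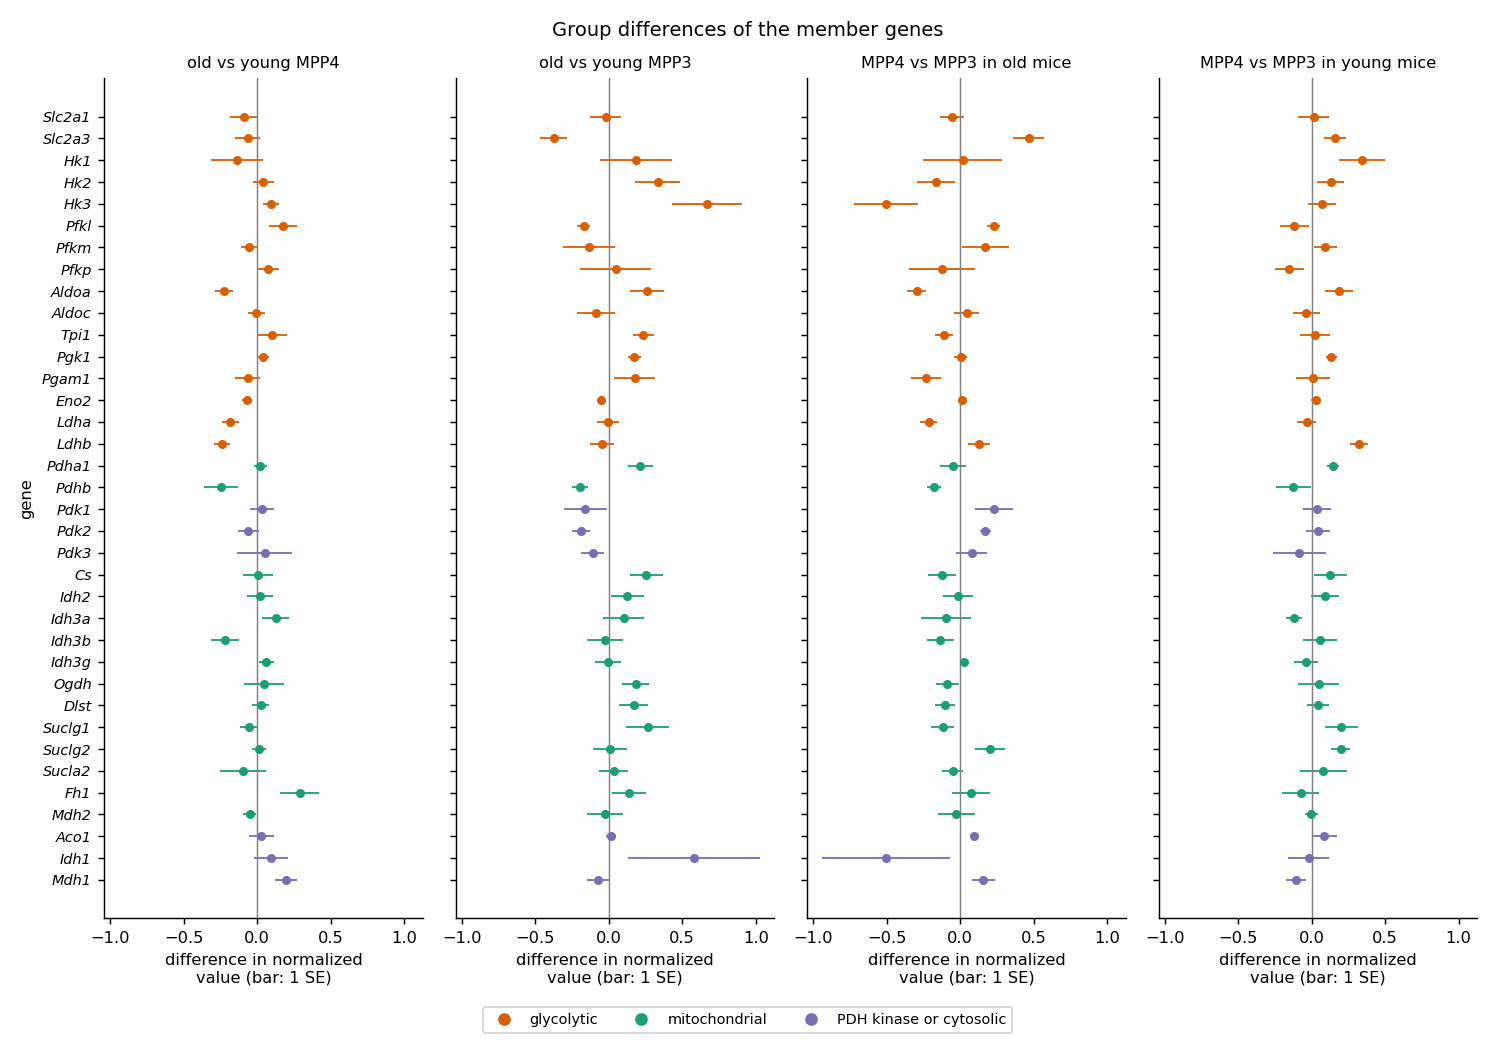
Difference in normalized value (horizontal axis, bar 1 SE) of the 36 members (vertical axis) in 4 comparisons, coloured by arm. Most points lie within 0.3 of the zero line, and the widest bars are those of Idh1 in the comparisons that use old MPP3.

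The age difference itself was compared between MPP4 and MPP3 over all 14 arrays. An unadjusted p under 0.05 was found for 6 of 36 members (Aldoa, Pfkl, Hk3, Mdh1, Slc2a3 and Pgk1), against 6.26% of all genes. Aldoa, with a lower mean in old than in young MPP4 (-0.223) and a higher mean in old than in young MPP3 (0.260 ± 0.114), gave -0.483 ± 0.126 (SE; adjusted p = 0.621). On MPP3 arrays Aldoa had 2.71, 2.83 and 2.65 in old mice, against 2.71, 2.36 and 2.35 in young mice, where young replicate 1 lay among the old values. Within set 1 the Aldoa value was -0.227, and with array set as a term over all arrays it was -0.477.

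Pfkl ran opposite to Aldoa, with an age difference of 0.176 ± 0.0977 in MPP4 and -0.171 in MPP3, and the difference between them was 0.347 ± 0.124 (adjusted p = 0.719). Its MPP4 values were 1.10, 1.09 and 1.11 in old mice, against 1.23, 0.895, 0.887, 0.764 and 0.841 in young mice. Young replicate 1 stood apart from the other young arrays and above the old ones. Both young MPP4 arrays of set 1 lay above those of set 2, replicate 2 only narrowly. Within set 1 the age difference of Pfkl was 0.0369 in MPP4, and the difference between the age differences was 0.187. Hk3, the hexokinase of myeloid cells, gave -0.575 ± 0.228 (adjusted p = 0.765), and Mdh1 gave 0.266 ± 0.110 (adjusted p = 0.782). With array weights, Aldoa, Hk3, Idh3b and Pfkl passed, 4 of 36 members against 3% of all genes, and Idh3b, another subunit of NAD-dependent isocitrate dehydrogenase, was at -0.476 with the weights and at 0.167 within set 1.

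The balance of the 2 arms overlapped between all 4 groups. The mean of the glycolytic arm minus that of the mitochondrial arm was -0.505, -0.424 and -0.458 on old MPP4 arrays, against -0.400, -0.522, -0.377, -0.442 and -0.404 on young MPP4 arrays. It was -0.477, -0.519 and -0.418 on old MPP3 arrays, against -0.490, -0.469 and -0.411 on young MPP3 arrays. The means were -0.462 ± 0.0408 in old MPP4 and -0.429 ± 0.0574 in young MPP4, and -0.471 ± 0.0508 in old MPP3 and -0.457 ± 0.0408 in young MPP3 (SD). Each difference of group means, from -0.0332 for age in MPP4 to 0.0280 for population in young mice, was smaller than the pooled SD, which lay between 0.0460 and 0.0524. Its direction depended on the summary, since with medians over the members in place of means the difference was 0.0290 for age in MPP4, 0.169 for age in MPP3 and -0.134 between populations in old mice, each with the sign turned.

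Both arms taken singly had higher means in old than in young MPP3. The glycolytic arm averaged 1.71, 1.76 and 1.72 on old MPP3 arrays, against 1.63, 1.63 and 1.70 on young MPP3 arrays. The mitochondrial arm averaged 2.19, 2.28 and 2.13 on old MPP3 arrays, against 2.12, 2.10 and 2.11 on young MPP3 arrays. In neither arm did the groups overlap, and old replicate 2 was the highest array in both. The margins were narrow, with 1.711 against 1.696 in the glycolytic and 2.134 against 2.124 in the mitochondrial arm (lowest old, highest young). The glycolytic separation rests on the Hk1 probe set with 0 RefSeq accessions. On replicate 3 that probe set had 4.78 in old and 4.19 in young MPP3. The second Hk1 probe set had 1.78 and 1.80 there. Marker means also differed between these arrays. The 13 cell cycle genes averaged 2.34, 2.43 and 2.20 on old MPP3 arrays, against 2.27, 2.24 and 2.13 on young MPP3 arrays, and the lymphoid priming genes 0.960, 0.849 and 1.33, against 1.38, 1.48 and 1.22. The means of the myeloid progenitor and mature neutrophil markers were higher in old than in young MPP3, by 0.747 and 0.570. Their part in the values of the arms was not tested. In MPP4 the mitochondrial arm hardly varied, with 2.15 ± 0.0211 in old and 2.16 ± 0.0168 in young mice (SD), while the glycolytic arm averaged 1.69 ± 0.0376 in old and 1.73 ± 0.0484 in young mice.

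**Figure D4:**
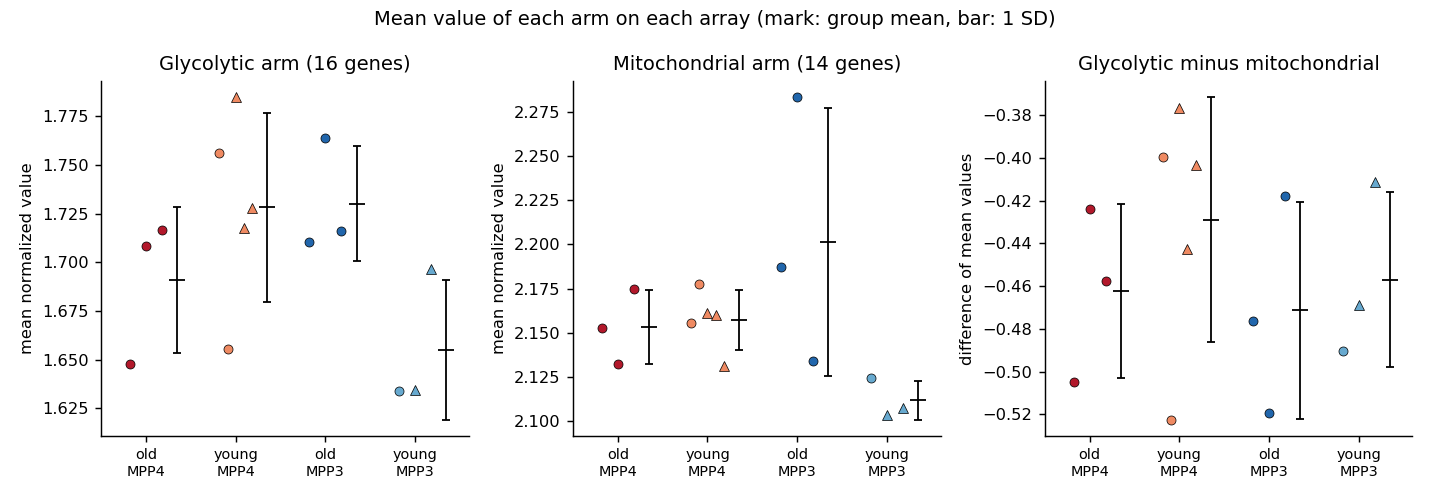
Mean normalized value of the glycolytic arm, the mitochondrial arm and their difference on each array (vertical axes), by group, with array set 1 as circles and set 2 as triangles. Marks and bars are group means and 1 SD. The groups overlap in the difference, and old MPP3 replicate 2 has the highest mitochondrial mean, 2.28.

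Some members varied widely among the old MPP3 arrays. Hk3 had 1.87, 2.35 and 1.51 on old MPP3 arrays, against 1.46, 1.23 and 1.04 on young MPP3 arrays (difference 0.670 ± 0.239, adjusted p = 0.576). Idh1, the cytosolic isocitrate dehydrogenase that makes NADPH, was singled out after its values were seen and had 2.10, 2.74 and 1.04 on old MPP3 arrays, against 1.12, 1.40 and 1.62 on young ones. Hk3 did not overlap between the groups, whereas Idh1 on old replicate 3 lay below every young array. Hk2, the inducible hexokinase, and Pfkp, the platelet-type phosphofructokinase subunit, were likewise highest on old replicate 2, at 1.64 and 1.65.

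Markers of other cells also differed between these arrays. The mean of 8 myeloid progenitor markers (Mpo, Elane, Prtn3, Ctsg, Cebpa, Csf1r, Fcgr3 and Ms4a3) was 2.53, 3.07 and 1.93 on old MPP3 arrays, against 1.51, 2.09 and 1.68 on young MPP3 arrays. The old arrays had the same order in this mean as in Hk3 (replicates 2, 1 and 3), and the young arrays did not. Idh1, Hk2 and Pfkp were picked as high on old replicate 2, so that their order there partly follows from that choice. On MPP4 arrays this mean lay between 1.19 and 1.24 in old mice and between 0.977 and 1.23 in young mice. The 6 mature neutrophil markers averaged 1.21, 1.88 and 1.41 on old MPP3 arrays, against 0.765, 1.10 and 0.923 on young MPP3 arrays. All 8 myeloid progenitor markers and all 6 neutrophil markers had the higher mean in old MPP3, with 0 of either list past the adjusted threshold and 1 and 3 at an unadjusted p under 0.05. Their part in the values of Hk3, Idh1, Hk2 and Pfkp was not tested. The mean of 13 cell cycle genes was 2.23, 2.36 and 2.39 on old MPP4 arrays, against 2.18, 2.30, 2.03, 2.10 and 2.01 on young MPP4 arrays, and its part in the lactate dehydrogenase and aldolase values was not tested.

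**Figure D5:**
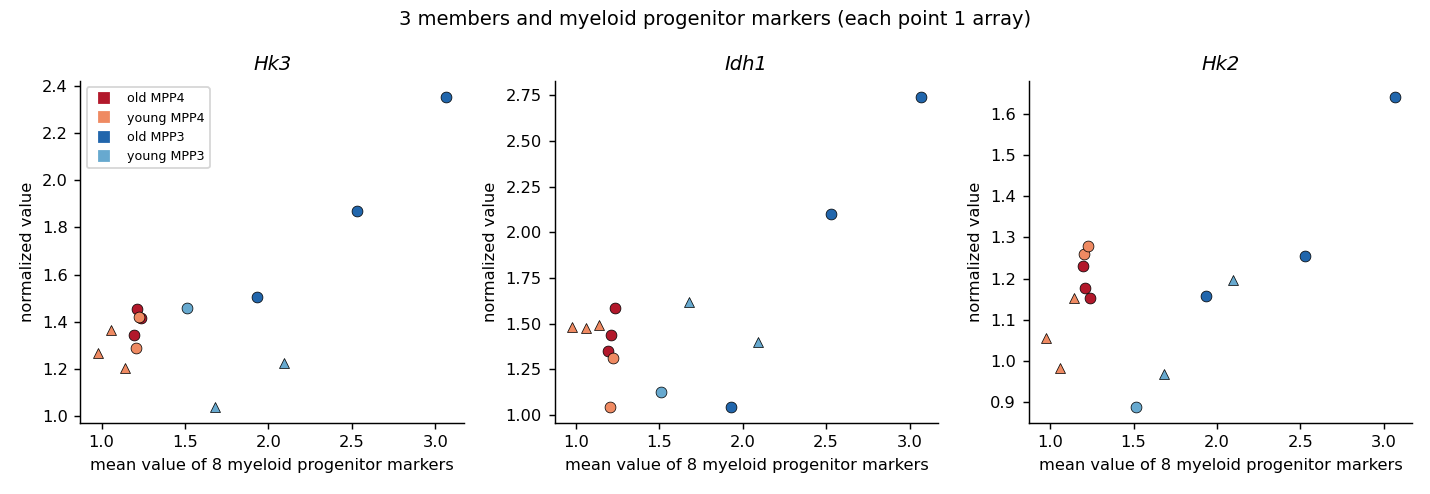
Normalized value of Hk3, Idh1 and Hk2 (vertical axes) against the mean of 8 myeloid progenitor markers (horizontal axis), each point 1 array, coloured by group, with array set 1 as circles and set 2 as triangles. Old MPP3 replicate 2 is the point at the upper right of each panel, at a marker mean of 3.07.

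Within young MPP4 many members divided by array set. For 23 of 36 members the 2 young MPP4 arrays of set 1 did not overlap with the 3 of set 2, against 48.9% of all genes. Pdhb had 1.81 and 1.79 in set 1 and 2.22, 2.20 and 2.12 in set 2, while the old MPP4 arrays, all of set 1, had 1.77, 1.85 and 1.73. Ogdh, the E1 component of 2-oxoglutarate dehydrogenase, had 2.43 and 2.12 in set 1 and 1.89, 1.85 and 1.85 in set 2, and Cs, the citrate synthase that opens the cycle, had 2.72 and 2.67 in set 1 and 2.37, 2.41 and 2.35 in set 2. Both mitochondrial enzymes were thus higher in set 1, and Pdhb was lower there. Ldhb, Aldoa and Ldha were not divided in this way, since the set 2 values lay between or among the set 1 values. Mdh1 was divided, with 2.45 and 2.55 in set 1 and 2.38, 2.37 and 2.28 in set 2. The old MPP4 arrays had 2.75, 2.52 and 2.52 in Mdh1, the last 2 between the young values of set 1.

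Of 46 measured genes of the same pathways outside the 39 (glycolytic side branches, monocarboxylate transporters, the other pyruvate dehydrogenase components, succinate dehydrogenase and the pentose phosphate pathway), 0 passed in any comparison. At an unadjusted p under 0.05 they numbered 8 for age in MPP4 (9.77% of all genes), 3 for age in MPP3 (8.19%), 4 between populations in old mice (9.83%), 7 in young mice (11%) and 4 for the difference between the age differences (6.26%). Their median differences were 0.00601 for age in MPP4, 0.0114 for age in MPP3, -0.0153 between populations in old mice and -0.0183 in young mice. Pgd, which makes NADPH in the pentose phosphate pathway, averaged 2.42 ± 0.405 in old MPP3 and 1.87 ± 0.0705 in young MPP3 (SD, n = 3 each; difference 0.542 ± 0.207, adjusted p = 0.596). Of the 8 counted for age in MPP4, 3 had the higher mean in old MPP4 and 5 the lower. Got2, the mitochondrial aspartate aminotransferase of the malate-aspartate shuttle, averaged 2.16 ± 0.126 in old MPP4 and 1.84 ± 0.117 in young MPP4 (difference 0.324 ± 0.0806, adjusted p = 0.358). Mdh1 also had the higher mean in old MPP4, whereas Mdh2, the mitochondrial malate dehydrogenase, differed by -0.0500 (adjusted p = 0.737).

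Among 21 regulators of these pathways, 0 passed in any comparison, and at an unadjusted p under 0.05 they numbered 4, 1, 1, 4 and 3 in the same order of comparisons, against the same 9.77%, 8.19%, 9.83%, 11% and 6.26% of all genes. For age in MPP4, 2 of the 4 had the higher mean in old mice and 2 the lower. Egln3, a HIF prolyl hydroxylase that is itself a HIF target, averaged 2.02 ± 0.107 in old MPP4 and 1.66 ± 0.117 in young MPP4 (SD; difference 0.363 ± 0.0764, adjusted p = 0.321). Prkaa1 differed by 0.220, Mlxipl by -0.0924 and Stk11 by -0.183 (adjusted p = 0.323, 0.304 and 0.469). Txnip, which restrains glucose uptake, averaged 2.64 ± 0.315 in old MPP3 and 3.17 ± 0.057 in young MPP3 (difference -0.527 ± 0.162, adjusted p = 0.549). Egln1, the main HIF prolyl hydroxylase, averaged 1.56 ± 0.0807 in young MPP4 and 1.30 ± 0.0569 in young MPP3 (difference 0.259 ± 0.0511, adjusted p = 0.143).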

How the data were processed

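Gene expression was measured on 14 arrays in 4 groups taken from the sample titles. Per the labels and methods, the authors summarized probes with RMA and mapped each array by quantiles onto an exponential distribution. The deposited value is thus a score that carries rank only, and 92.3% of the values matched a whole rank among 25307 probe sets to 0.01. Array medians lay between 0.662 and 0.675, and the number of arrays limits the precision. No value was normalized again and no dim probe set was left out.

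The table held 22115 probe sets. The 2135 without an entry in the platform annotation and the 744 with several gene symbols were dropped. In 76 genes several probe sets remained, and the one with the highest overall mean stood for the gene. This gave 19155 genes.

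Linear models were fitted with limma 3.58.1 (lmFit, eBayes) in R 4.3.3, two-sided, on the arrays of the groups compared, or on all 14 arrays for the difference between the age differences, and p values were adjusted over all genes (Benjamini-Hochberg, threshold 0.05). The test was tried on simulated data. SAM, the test the study's methods name, rests on splits of the labels and was not run. Replicates are called biological in the methods, and numbers shared between groups were not taken as pairs. Arm means carry no p. Array sets were 2 clusters by the 33.3% of probe sets with the lowest means. Other settings covered a shared fit, the variance estimate, array weights, a filter on dim genes, averaging of probe sets, normal scores, a replicate block, array set, arrays with Xist and each array left out. Array set 1 or 2 alone, array set as a term in the age comparisons and the second Hk1 probe set were added after the data were seen.

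The members, arms and marker lists were chosen with earlier results of these data known. Named were, for each comparison, the 4 members with the largest moderated statistic, the 3 highest and 3 lowest means, and up to 4 genes of each other list. Hk2, Pfkp, Idh1, Pdha1 and Tpi1 in old against young MPP3, Aco1, Pdhb and Ldha between old populations, Hk3 and Idh1 there, Ogdh, Cs and Slc2a1, and members past the threshold under another setting were added after their values were seen. Promoter sequences came from RefSeq (GRCm38.p6). Figures were drawn with Python 3.11.15.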

Additional observations from a re-analysis of the deposited data

Results flagged for a closer look

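Among 49 sets of values in groups of 4 to 10 arrays (young MPP4 only), 3 held an array farther from the others than their spread allows, and chance alone gives about 5% of such sets. Pfkl on young MPP4 replicate 1 was 1.23, against 0.764 to 0.895 on the other 4 arrays. The mean of the regulators of the pathways was 1.53 on the same array, against 1.47 to 1.48 on the others. The mean of the erythroid markers was 1.13 on young MPP4 replicate 4, against 0.751 to 0.833 on the others. No explanation was tested.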

How the results depend on the processing

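Settings were compared for the 4 members named first in each comparison and for every member with an unadjusted p under 0.05 or past the adjusted threshold under any setting. Of their values, 554 kept their direction and their side of the threshold, and 16 passed it, with array weights, array set as a term or array set 2 only. The other 3 reversed, all in array set 1 only: Aldoa (-0.0690) and Pfkp (0.109) for MPP4 against MPP3 in young mice and Idh3b (0.167) for the difference between the age differences. Members past the adjusted threshold stayed at 0 of 36 except with array weights (1 for old against young MPP4, 6 for MPP4 against MPP3 in young mice, 4 for the difference between the age differences), with array set as a term (1) and with array set 2 only (4), the last 2 in young mice. When medians replaced means, the glycolytic minus mitochondrial difference moved by more than the pooled SD of the score from means. It moved to 0.169 for age in MPP3, 0.0290 for age in MPP4 and -0.134 between populations in old mice, each with the sign turned. The spread of the score from medians was not computed, so these values are not set against their own spread. The cause was not tested.

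Counts over all genes depended more on the setting. For MPP4 against MPP3 in young mice, 25 genes became 1808 with array weights, 1492 in array set 2 only, 271 with array set as a term, 59 without the dimmest genes, 51 on normal scores, 48 with a variance trend, and 0 with the replicate block, in array set 1 only or without the arrays with Xist. Leaving out 1 array gave 8 to 108, the highest without young MPP3 replicate 1. For old against young MPP4, 0 became 304 with array weights, 1 in the shared fit and up to 15 without 1 array (young MPP4 replicate 2). For old against young MPP3, 0 became 9 in the shared fit and 1 in array set 1 only or with array set as a term. For MPP4 against MPP3 in old mice, 0 became 27 in the shared fit, 2 on normal scores, 1 without the dimmest genes and up to 3 without 1 array. For the difference between the age differences, 0 became 574 with array weights, 2 with a variance trend and up to 10 without 1 array (old MPP3 replicate 3).

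Members with an unadjusted p under 0.05 numbered 2 to 14 of 36 for age in MPP4 (6.35% to 28.5% of all genes), 2 to 12 for age in MPP3 (4.69% to 27.4%), 6 to 17 between populations in old mice (6.48% to 16.8%), 1 to 11 in young mice (7.92% to 28.9%) and 2 to 12 for the difference between the age differences (4.53% to 21.2%). The highest of each was with array weights, which also gave the highest share of all genes. Without old MPP3 replicate 3, the array with the lowest myeloid progenitor marker mean of its group, this count was 15 between populations in old mice (11.7% of all genes) and 12 for the difference between the age differences (7.04%). With the replicate block, 0 members passed in every comparison. Same-numbered arrays correlated in their deviations between -0.192 and 0.407, so the numbers are not taken to pair the arrays. Array set as a term, added to the age comparisons after the data were seen although set 2 holds no old array, left 0 members past the threshold and gave Ldhb -0.236 (adjusted p = 0.298) for age in MPP4. It does not apply between old populations, whose arrays are all of set 1. The Hk1 value rests on the probe set used, and the second probe set averaged 1.56 in old MPP4 and 1.65 in young MPP4, and 1.89 in old MPP3 and 1.75 in young MPP3.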
